A study of Mus musculus with 7 samples.

Results

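A set of 10 genes of type 2 inflammation and alternative macrophage activation were followed in the lungs of bleomycin-treated mice with and without hyperbaric oxygen. They were Il33, Il1rl1, Il4ra, Il13ra1, Il13ra2, Mrc1, Clec10a, Retnla, Chil4 and Arg1, taken by symbol from the 55401 genes of a table of RNA-seq read counts. Right lung lobes came from 7 male C57BL/6 mice, 6 to 8 weeks old, that all received bleomycin into the trachea, the BLM group holding 4 mice and the BLM+HBO group 3. The BLM+HBO mice breathed oxygen at 2.5 times atmospheric pressure for 90 min a day over 14 days, starting 7 days after bleomycin, and lungs were taken on day 21. The sample labels place the BLM mice in the same chamber without pressurised oxygen, whereas the study's methods call the control mice untreated, and these accounts could not be reconciled here. Mice that lost too little weight after bleomycin had been excluded from the model. No lung without bleomycin was analysed here, so every comparison is between bleomycin-treated groups, in 1 strain and 1 sex.

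Type 2 inflammation is the immune programme of allergy, worm infection and tissue repair. Damaged barrier cells release the alarmin IL-33, which binds the receptor ST2 on innate lymphoid and other cells. Those cells make IL-4 and IL-13, which signal through receptors containing the IL-4 receptor alpha chain to the transcription factor STAT6. In macrophages STAT6 switches on arginase 1, mannose receptor and small secreted proteins such as resistin-like alpha, a state called alternative activation that has long been linked to scarring of the lung.

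The libraries held 18157161 to 26365969 counted reads each, and 17465 genes passed the filter on low counts. Markers of lung epithelium were abundant in every mouse, with summed alveolar type 2 cell markers at 8833 to 27660 CPM (counts scaled to library size). On the first principal component, which carried 37.3% of the variance, BLM mice lay between -47.6 and -6.08. BLM+HBO 1 and BLM+HBO 3 lay at 54.8 and 37.8, but BLM+HBO 2 lay at -0.996, next to the BLM mice. Of 6 heart muscle markers, 6 were higher in BLM+HBO at a fold change over 1.5 and an unadjusted edgeR P under 0.05. By that rule 3.4% of all tested genes were higher. These markers summed to 54.4 to 144 CPM in BLM and 132 to 561 CPM in BLM+HBO, and their part in the results was not tested. In whole lung, fewer cells of a type and less RNA per cell cannot be told apart.

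Of the 10 genes, 8 had enough reads to test. Arg1, Mrc1 and Il4ra were lower in BLM+HBO past the study's thresholds (fold change over 1.5 and P under 0.05 before adjustment), and no member was higher past them. Among all tested genes 2.89% were lower and 3.4% were higher by the same rule. The median log2 fold change of the 8 tested members was -0.45, against 0.01 over all tested genes. The members were chosen with earlier results of these data known, so the values over all genes are a description and not a test of the set. After Benjamini-Hochberg adjustment over all genes, edgeR's quasi-likelihood test called 0 of the 8 members and 0% of all genes at 0.05, while 1861 genes had an unadjusted P below 0.05. DESeq2 called 1 member, Arg1, and 0.918% of its genes. In Arg1 and Il4ra every BLM+HBO mouse was below every BLM mouse, a separation seen in 4.72% of all tested genes, and 4.05% of genes were separated in the opposite direction.

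Arg1 encodes arginase 1, which turns arginine into ornithine and urea and so competes with nitric oxide synthase. The gene (ENSMUSG00000019987.9, chr10:24915221-24927484, minus strand, GRCm38) showed the largest difference of the 8 tested members. Arg1 stood at 130.0, 69.0, 60.3 and 45.1 CPM in BLM mice 1 to 4 and at 4.68, 22.6 and 6.75 CPM in BLM+HBO mice 1 to 3. The lowest BLM mouse was still above the highest BLM+HBO mouse. The group means were 76.1 ± 37.3 (SD, n = 4) and 11.4 ± 9.82 CPM (SD, n = 3), 6.71-fold lower in BLM+HBO (log2 fold change -2.75, SE 0.56, 95% confidence interval -4.00 to -1.50). The unadjusted edgeR P for Arg1 was 0.000686 and its adjusted P by edgeR was 0.423. DESeq2 gave Arg1 an adjusted P of 0.0158. Over the alternatives the adjusted P for Arg1 ran from 1.34e-05 (edgeR without a filter on low counts) to 0.802 (edgeR without BLM+HBO 1). Without BLM+HBO 2, the library nearest to the BLM mice, the log2 fold change of Arg1 was -3.72.

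Mrc1 encodes the mannose receptor CD206, an endocytic lectin of macrophages and some endothelial cells. Mrc1 (ENSMUSG00000026712.3, chr2:14229392-14332057, plus strand) stood at 321, 224, 195 and 171 CPM in BLM and at 100.1, 172 and 110 CPM in BLM+HBO. The groups touched at BLM 4 and BLM+HBO 2, whose values were nearly equal, while the other BLM+HBO mice were below all BLM mice. Mrc1 was 1.79-fold lower in BLM+HBO (log2 fold change -0.84, SE 0.25, 95% confidence interval -1.40 to -0.28). The unadjusted edgeR P for Mrc1 was 0.00746, its adjusted P by edgeR was 0.423, and DESeq2 gave an adjusted P of 0.0629. Over the alternatives the adjusted P for Mrc1 ran from 0.0115 (edgeR without a filter on low counts) to 0.802 (edgeR without BLM+HBO 1). Without BLM+HBO 2 the log2 fold change of Mrc1 was -1.12.

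Il4ra encodes the chain shared by the receptors for IL-4 and IL-13. Il4ra (ENSMUSG00000030748.9, chr7:125552120-125579474, plus strand) stood at 349, 349, 317 and 381 CPM in BLM and at 158, 286 and 210 CPM in BLM+HBO. The groups did not overlap, and BLM+HBO 2 was again the BLM+HBO mouse nearest to BLM. Il4ra was 1.60-fold lower in BLM+HBO (log2 fold change -0.68, SE 0.18, 95% confidence interval -1.09 to -0.27). The unadjusted edgeR P for Il4ra was 0.00460, its adjusted P by edgeR was 0.423, and DESeq2 gave an adjusted P of 0.0544. Over the alternatives the adjusted P for Il4ra ran from 0.0234 (edgeR without a filter on low counts) to 0.802 (edgeR without BLM+HBO 1). Leaving out BLM+HBO 2 gave Il4ra a log2 fold change of -0.92, and leaving out BLM+HBO 1 gave -0.49, under the fold limit of 1.5. An antisense gene, Gm44876, covers 9.51% of the exonic bases of Il4ra, and counting without strand gave it 5 reads over all mice.

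**Figure D1:**
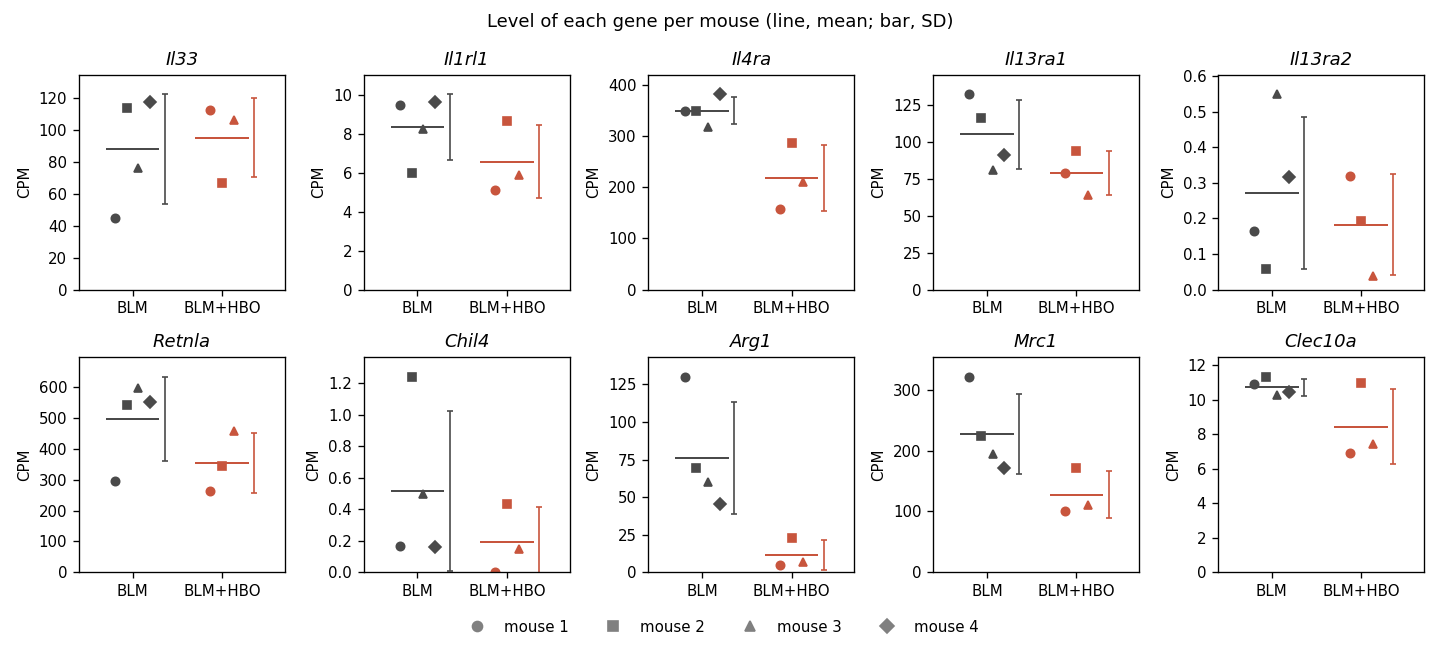
CPM of each gene (y axis, from 0, own scale per panel) in BLM (grey) and BLM+HBO (orange) mice, with 1 symbol per mouse, a line at the mean and a bar of 1 SD. The 3 BLM+HBO mice sit below the 4 BLM mice for Arg1 and Il4ra, and BLM+HBO 2 (square) is the highest BLM+HBO mouse for 7 of the 10 genes.

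Most interstitial macrophage markers were lower beside these 3 genes, while alveolar macrophage markers were mixed. Of 8 interstitial macrophage markers, 6 were lower in BLM+HBO past the thresholds, 0 were higher, and their summed level was 1011 to 1810 CPM in BLM and 744 to 1048 CPM in BLM+HBO. The markers not past the thresholds were Cx3cr1 and Lyve1, with log2 fold changes of -0.11 and 0.14. None of the 8 was at 0 in every mouse. Among 8 alveolar macrophage markers, which include Chil3, 2 were lower and 1 was higher past the thresholds, with sums of 756 to 2173 CPM in BLM and 707 to 893 CPM in BLM+HBO. Chil3 made up most of that sum, and the other 7 markers summed to 208 to 338 CPM in BLM and 295 to 315 CPM in BLM+HBO, 5 of them with a higher mean in BLM+HBO. The 2 lower markers were Marco and Chil3, at log2 fold changes of -2.06 and -1.06. Marco was at 14.1 to 57.7 CPM in BLM and 3.03 to 10.6 CPM in BLM+HBO, without overlap, as in 4.72% of all tested genes. The 1 higher marker, Krt79 at 2.09, rested on 8.85 CPM in BLM+HBO 3, against 2.24 and 0.909 in BLM+HBO 1 and 2. The 3 chains of complement C1q, secreted mainly by macrophages, summed to 1345, 939, 1061 and 754 CPM in BLM and to 335, 764 and 420 CPM in BLM+HBO. As a comparison chosen after the data were seen, each of the 3 genes was therefore divided by the summed C1q genes of its own library.

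Arg1 was also lower in BLM+HBO relative to the C1q genes, which follows from its larger fall in CPM. C1qa, C1qb and C1qc had log2 fold changes of -1.01, -0.96 and -1.11, against -2.75 for Arg1. The ratio reuses those values and is not separate support. The log2 ratio of Arg1 to the C1q sum was -3.37, -3.77, -4.14 and -4.06 in BLM and -6.16, -5.08 and -5.96 in BLM+HBO. The groups did not overlap, and the mean difference was -1.90 (p = 0.0286 by an exact two-sided permutation test, which cannot go lower with 7 mice). Adjusted over the 6 ratios tested, that exact p became 0.171. The ratio for Mrc1 was 0.24 higher in BLM+HBO (exact permutation p = 0.257) and the ratio for Il4ra was 0.36 higher (exact permutation p = 0.286). Both ratios overlapped between the groups, at -2.45 to -2.06 in BLM and -2.15 to -1.74 in BLM+HBO for Mrc1, and at -1.94 to -0.98 and -1.42 to -0.997 for Il4ra. The sign of both differences was thus the reverse of that in CPM, within the spread of the mice.

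**Figure D2:**
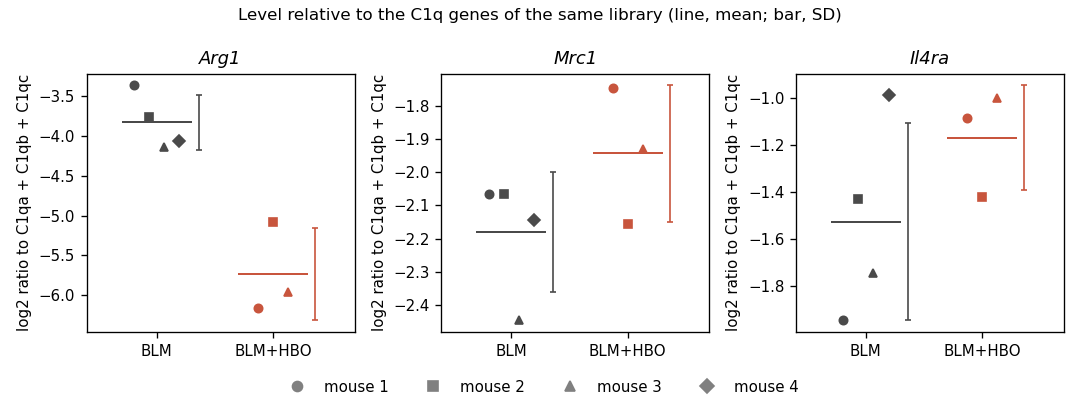
Log2 ratio of Arg1, Mrc1 and Il4ra to the summed CPM of C1qa, C1qb and C1qc in the same library (y axis, own scale per panel), with 1 symbol per mouse, a line at the mean and a bar of 1 SD. The BLM+HBO mice lie below all BLM mice for Arg1, and the groups overlap for Mrc1 and Il4ra.

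Retnla encodes resistin-like alpha, a small protein secreted by alternatively activated macrophages and airway epithelium, and Chil4 encodes a chitinase-like protein. The stretch of DNA before the Retnla gene is shown with that of Il33 because, of the 8 members with a promoter entry in RefSeq, these 2 held the letters TTCNNNNGAA, a form of the STAT recognition sequence, within 250 bases upstream of a RefSeq start. The motif reads the same on both strands, and 5.85% of 32851 mouse windows of that length held it. In the sequences, from RefSeq's GRCm38.p6 and given 5′ to 3′ on the plus strand, which is the strand of both genes, capitals mark the motif. The Retnla stretch is chr16:48842359-48842550 and the Il33 stretch is chr19:29924863-29925112, each ending before the counted gene model.
Retnla: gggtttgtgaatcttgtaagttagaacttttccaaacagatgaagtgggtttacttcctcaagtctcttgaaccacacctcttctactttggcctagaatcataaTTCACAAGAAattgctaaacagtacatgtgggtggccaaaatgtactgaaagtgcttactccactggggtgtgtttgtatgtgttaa
Il33: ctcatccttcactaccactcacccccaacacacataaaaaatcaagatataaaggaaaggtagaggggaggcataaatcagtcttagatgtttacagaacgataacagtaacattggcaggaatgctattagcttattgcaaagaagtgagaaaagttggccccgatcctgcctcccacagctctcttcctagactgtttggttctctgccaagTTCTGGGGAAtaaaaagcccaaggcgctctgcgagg
The match begins at position -145 from the RefSeq start of Retnla and at -36 from that of Il33. A match of letters is a description, not a site bound by a factor.

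Retnla (ENSMUSG00000061100.5, chr16:48842551-48844461, plus strand) stood at 297, 544, 597 and 553 CPM in BLM and at 263, 344 and 458 CPM in BLM+HBO. BLM 1 was low and overlapped the BLM+HBO mice, while the other BLM mice were above all of them. The log2 fold change was -0.49 (SE 0.26, 95% confidence interval -1.06 to 0.09), with an unadjusted edgeR P of 0.0883 and an edgeR adjusted P of 0.530. Without BLM 1 the log2 fold change was -0.67 and Retnla met the thresholds. It also met them without BLM+HBO 3, at -0.72. Per kilobase of transcript, Retnla was the highest of the 10 genes in both groups, at 831 CPM per kb in BLM and 593 in BLM+HBO.

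Chil4 (ENSMUSG00000063779.6, chr3:106201490-106219507, minus strand) had too few reads to test. Its counts were 3, 22, 9 and 3 in BLM and 0, 9 and 4 in BLM+HBO. A count of 0 in BLM+HBO 1 allows up to 0.160 CPM, a limit for counting error only. The low counts overlapped between the groups. Chil4 shares 2.03% of its 100-base words with its paralog Chil3, so a part of its reads could be dropped or split. The log2 ratio of Chil4 to Chil3 differed by 0.25 between 4 BLM and 2 BLM+HBO mice, leaving out BLM+HBO 1 with its count of 0 (exact permutation p = 0.933, smallest possible 0.0667).

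Il33 encodes the alarmin itself, stored in the nuclei of alveolar epithelial and stromal cells. Il33 (ENSMUSG00000024810.16, chr19:29925114-29960718, plus strand) stood at 45.0, 114, 75.8 and 117 CPM in BLM and at 113, 66.9 and 106 CPM in BLM+HBO. The groups overlapped throughout, with BLM 1 and BLM+HBO 2 the lowest mice of their groups. The log2 fold change was 0.11 (SE 0.31, 95% confidence interval -0.58 to 0.80), with an edgeR P of 0.724 and an edgeR adjusted P of 0.924. Its sign changed when a mouse was left out, from -0.11 without BLM 1 to 0.31 without BLM+HBO 2. The summed alveolar type 2 cell markers were also lowest in those mice, at 8833 CPM in BLM 1 and 11203 CPM in BLM+HBO 2, and their part in the Il33 level was not tested.

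Il1rl1 encodes ST2, the receptor for IL-33, in a membrane form and a soluble decoy form that gene counts do not separate. Il1rl1 (ENSMUSG00000026069.15, chr1:40429570-40465415, plus strand) stood at 9.47, 5.97, 8.24 and 9.64 CPM in BLM and at 5.11, 8.66 and 5.89 CPM in BLM+HBO. BLM 2 and BLM 3 lay within the BLM+HBO range, and BLM+HBO 2 lay within the BLM range. The log2 fold change was -0.35 (SE 0.25, 95% confidence interval -0.91 to 0.22), with an edgeR P of 0.203 and an edgeR adjusted P of 0.643. Without BLM+HBO 2 it was -0.60 and met the thresholds. The log2 ratio of Il1rl1 to Il33 was 0.53 lower in BLM+HBO, a difference within the spread of the mice (exact permutation p = 0.486). Summed markers of cells that can carry ST2 were 29.5 to 33.3 CPM in BLM and 26.2 to 31.1 CPM in BLM+HBO for group 2 innate lymphoid and Th2 cells, and 149 to 223 and 177 to 240 CPM for mast cells. The lymphoid sum was mostly Hpgds, lower past the thresholds, and the other 6 markers all had higher means in BLM+HBO, with sums of 8.59 to 14.1 CPM in BLM and 13.1 to 20.5 CPM in BLM+HBO. The mast cell sum was nearly all Kit, and without Kit it was 5.01 to 5.81 CPM in BLM and 5.44 to 8.78 CPM in BLM+HBO. Their part in the Il1rl1 level was not tested.

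Il13ra1 pairs with Il4ra to form the signalling receptor for IL-13, and Il13ra2 binds IL-13 tightly and is regarded largely as a decoy. Il13ra1 (ENSMUSG00000017057.9, chrX:36112110-36171259, plus strand) stood at 132, 116, 81.1 and 90.9 CPM in BLM and at 78.9, 94.0 and 63.9 CPM in BLM+HBO. BLM 3 and BLM 4 lay within the BLM+HBO range, and the other BLM mice were above it. The log2 fold change was -0.41 (SE 0.19, 95% confidence interval -0.84 to 0.01), with an edgeR P of 0.0561 and an edgeR adjusted P of 0.475. Il13ra2 (ENSMUSG00000031289.10, chrX:147383476-147429192, minus strand) had 3, 1, 10 and 6 reads in BLM and 6, 4 and 1 reads in BLM+HBO, too few to test. The log2 ratio of Il13ra2 to Il13ra1 differed by -0.20 between groups (exact permutation p = 0.914).

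Clec10a encodes a macrophage and dendritic cell lectin that binds galactose and N-acetylgalactosamine. Clec10a (ENSMUSG00000000318.16, chr11:70156197-70170834, plus strand) stood at 10.9, 11.3, 10.3 and 10.4 CPM in BLM and at 6.92, 11.0 and 7.46 CPM in BLM+HBO. The BLM mice were close together, and BLM+HBO 2 alone reached their level. The log2 fold change was -0.35 (SE 0.20, 95% confidence interval -0.79 to 0.10), with an edgeR P of 0.111 and an edgeR adjusted P of 0.556. Of 6 conventional dendritic cell markers, which include Mgl2, 2 were higher in BLM+HBO past the thresholds and 0 had a lower mean. They summed to 88.0 to 136 CPM in BLM and 131 to 141 CPM in BLM+HBO, and their part was not tested. The close paralog Mgl2, which shares 2.64% of the 100-base words of Clec10a, had a log2 fold change of 0.27.

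**Figure D3:**
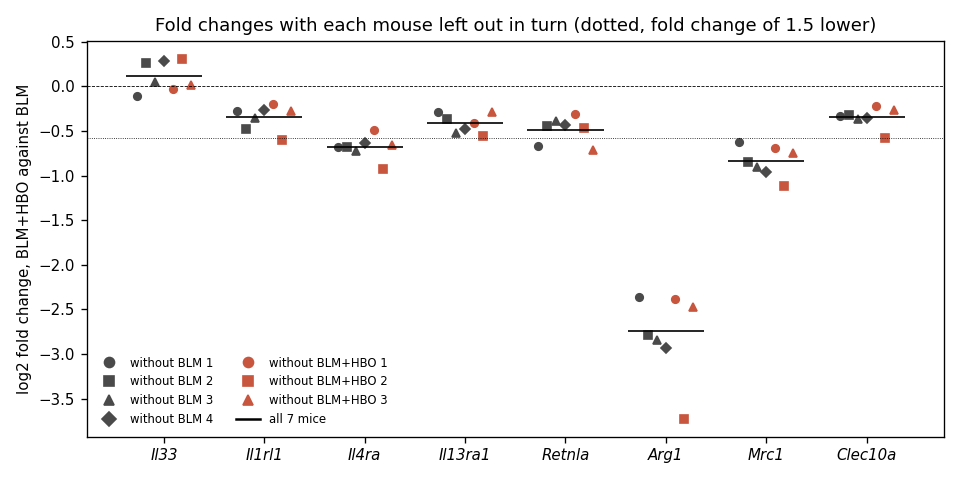
Log2 fold change, BLM+HBO against BLM (y axis), of the 8 tested genes with all 7 mice (line) and with each mouse left out in turn (symbols, BLM grey, BLM+HBO orange). Arg1 stays between -3.72 and -2.36 and Mrc1 between -1.12 and -0.63, and the values for Il33 lie on both sides of 0.

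Compared per kilobase of transcript, the members' mean levels in BLM ranked in the order Retnla, Il4ra, Mrc1, Arg1, Il33, Il13ra1, Clec10a, Il1rl1, Chil4 and Il13ra2. The BLM ranges of Mrc1, Arg1, Il33 and Il13ra1 overlapped one another, that of Arg1 also reached that of Il4ra, and those of Chil4 and Il13ra2 overlapped. In BLM+HBO, Arg1 moved from the fourth to the sixth place, from 34.2 CPM per kb in BLM to 5.10. Il33 held 30.5 CPM per kb in BLM and 33.0 in BLM+HBO. BLM+HBO 1 was the lowest BLM+HBO mouse for 7 of the 10 genes.

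The rest of the pathway was described with 71 other genes in 7 lists, of which 61 were tested, 7 were lower and 5 were higher past the thresholds. Their median log2 fold change was -0.06. Of the 7 type 2 cytokines and alarmins, 3 could be tested and 0 passed, with Il4 at a log2 fold change of -0.09 and the alarmin Tslp at 0.03. Il13 had 0, 1, 4 and 1 reads in BLM and 1, 7 and 3 reads in BLM+HBO, so the ligand of the IL-13 receptors was not measurable at this depth.

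Among 8 tested receptor partners, 0 were lower and 2 were higher past the thresholds. Il17rb, a receptor chain for IL-25, had a log2 fold change of 1.11 (unadjusted edgeR P 0.0105). Il9r, the IL-9 receptor, had one of 1.64, which rested on 10.2 CPM in BLM+HBO 1 and was 0.68 without that mouse. Of 12 signalling genes, 1 passed, Gata3 at 0.67, the master transcription factor of type 2 lymphocytes. Stat6 itself had a log2 fold change of 0.08 (95% confidence interval -0.14 to 0.30). Myd88 had one of -0.25 (unadjusted edgeR P 0.0344), under the fold limit, and Tyk2 one of 0.17. For Myd88 every BLM+HBO mouse was below every BLM mouse, as in 4.72% of all tested genes.

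Among 14 tested other alternative activation genes, 4 were lower and 1 was higher past the thresholds. The scavenger receptors Cd163 and Msr1 had log2 fold changes of -1.51 and -1.31, the chitinase-like gene Chil3 of -1.06 and the transcription factor gene Egr2 of -0.65. Cd209a, a dendritic cell lectin, stood at 0.998. Msr1 separated the groups without overlap, whereas Chil3 rested on BLM 1 and BLM 2, at 1169 and 1856 CPM against 411 to 613 in the other mice.

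Of 8 type 2 chemokines and receptors, 2 were lower and 1 was higher past the thresholds. Ccl8 and Ccl24, which draw type 2 cells and eosinophils, had log2 fold changes of -1.18 and -2.37, and Ccl22 had one of 0.76. Of 7 tested IL-13 responsive genes, 1 was lower past the thresholds, Agr2 at -1.35, and 0 were higher. Another 3 had too few reads to test. Of these, Itln1 had 8, 10, 8 and 12 reads in BLM and 0, 2 and 0 in BLM+HBO, and Retnlb and Foxa3 overlapped between the groups. In the same list Clca1, a gene of mucous airway cells, had a log2 fold change of 1.51 (95% confidence interval -0.19 to 3.20). Its unadjusted P was 0.0751 by edgeR and 0.0357 by DESeq2. Postn, a matrix protein gene, had a log2 fold change of -0.45 (unadjusted edgeR P 0.0385), under the fold limit. For Postn every BLM+HBO mouse was below every BLM mouse, as in 4.72% of all tested genes. Among 9 tested classical activation genes 0 passed in either direction, with Nos2 at -0.48 and Il6 at -1.44. Of the 12 other genes past the thresholds, Il17rb, Cd163, Msr1, Ccl8 and Agr2 stayed past them whichever mouse was left out, and 7 did not. The smallest values of those 7 were 0.44 for Gata3 and 0.77 for Cd209a without BLM+HBO 3, 0.53 for Ccl22 without BLM+HBO 2, and 0.68 for Il9r without BLM+HBO 1. They were -0.60 for Chil3 and -1.22 for Ccl24 without BLM 2, and -0.47 for Egr2 without BLM 4.

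**Figure D4:**
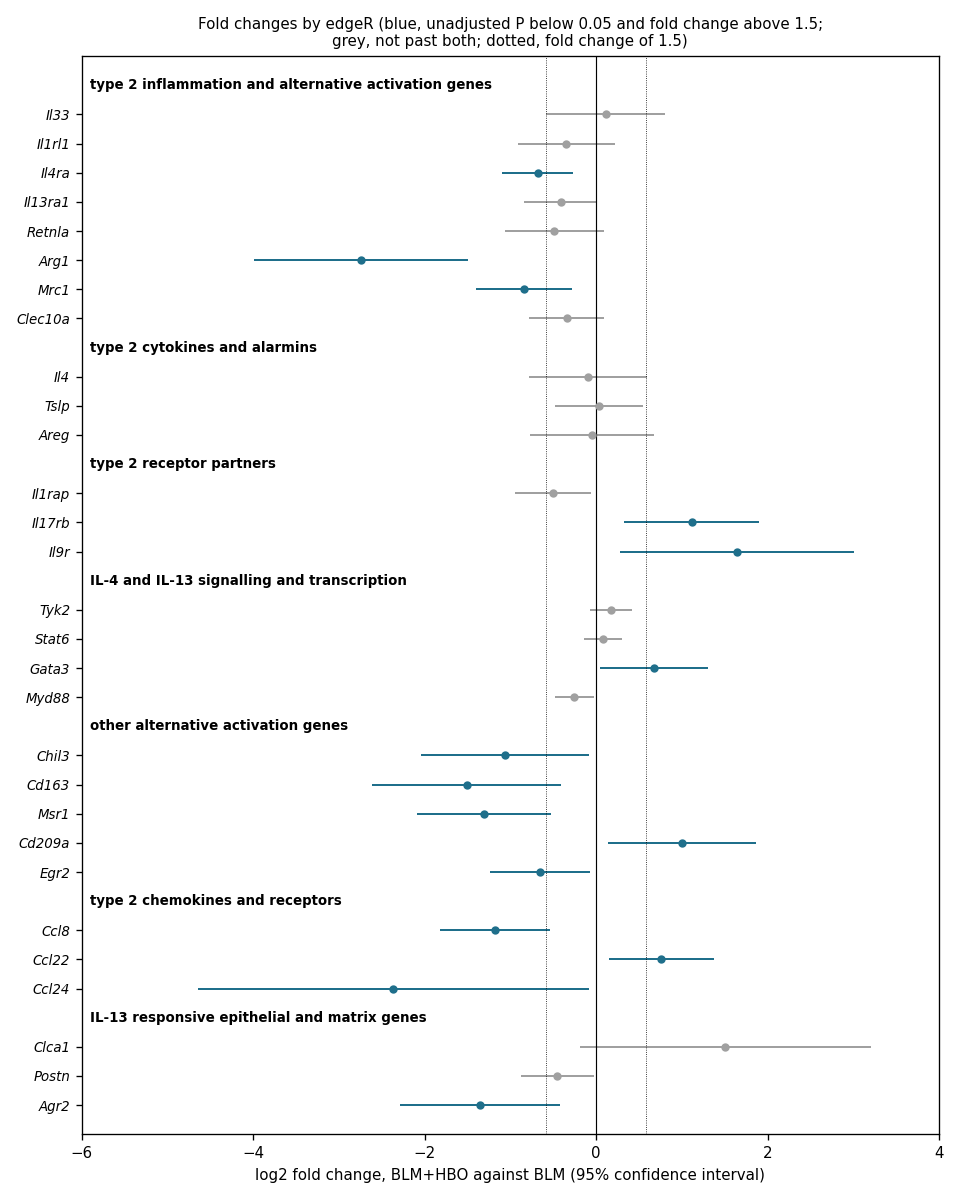
Log2 fold change, BLM+HBO against BLM (x axis), with its 95% confidence interval, for the 8 tested genes and the named genes of the 6 type 2 lists, without the classical activation genes. Blue points met the unadjusted thresholds and grey points did not, with Arg1 at -2.75 and Stat6 at 0.08.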

How the data were processed

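Whole-transcriptome libraries of right lung lobes from 4 BLM and 3 BLM+HBO mice were sequenced. The authors trimmed reads with Trim Galore, aligned them to GRCm38 with HISAT2 2.2.0 and deposited raw counts per gene from featureCounts (2.2.0 in the processing notes). Counting ignored strand and left out reads that matched several places or several genes, which lowers counts of genes with paralogs or overlapping neighbours. Symbols were added from GENCODE vM21 for 55141 of 55401 identifiers.

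The groups were compared with edgeR 4.0.16 (TMM factors, filterByExpr, quasi-likelihood test) over 17465 genes in R 4.3.3, with Benjamini-Hochberg adjustment. The test was run on simulated counts first. Totals were 18157161 to 26365969 counts per mouse, and CPM was computed from them after TMM scaling. Alternatives were DESeq2 1.42.0, limma 3.58.1 on log2 CPM, other scaling factors and filters, and leaving out each mouse. Ratios were tested by two-sided exact permutation over 35 assignments, or 15 for Chil4 to Chil3 without BLM+HBO 1. Leaving out a mouse gave fewer assignments.

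All members, every other listed gene past the thresholds, up to 3 genes of lowest P in lists with fewer, and Stat6, Chil3, Il4 and Il13 were named, except 1 gene that is not reported here. The members and lists were chosen with earlier results of these data known. Marker sums without Chil3, Hpgds or Kit and the ratios to C1q were added after the data were seen. The labels do not state whether mice were processed together. The libraries differed from one another by more than sampling noise.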

Additional observations from a re-analysis of the deposited data

Results flagged for a closer look

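Retnla in BLM 1 stood apart from the other BLM mice, at 8.22 log2 CPM against 9.09 to 9.22, a gap of 0.866 of the range of the group. In CPM this was 297 against 544 to 597. Chance flags about 1 in 20 such groups, and 38 were examined. Retnla met the thresholds without that mouse, and the cause was not tested.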

How the results depend on the processing

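Arg1, Mrc1 and Il4ra were the members past the thresholds under DESeq2, limma, other scaling factors, other filters and a robust fit. Asking for a fold change above 2 left 1 of the 3 members, and leaving out 1 mouse gave 2 to 4. The number past an adjusted P of 0.05 was 0 in edgeR, 1 by DESeq2 and 3 without a filter on low counts. It was 0 to 2 when 1 mouse was left out, the 2 without BLM+HBO 2. Without the filter, other genes also fell below an edgeR adjusted P of 0.05. Among them were Ccl8 at 0.0035, Cd163 at 0.00658, Agr2 at 0.0319 and Chil3 at 0.0439. By DESeq2 the adjusted P was 0.0101 for Ccl8, 0.254 for Cd163, 0.0532 for Agr2 and 0.441 for Chil3. For Msr1 the DESeq2 adjusted P was 0.0139. The share of all genes is given only for the main edgeR fit and DESeq2, so counts under other settings are not results about the members. Of the 71 other genes, 12 were past the thresholds, 3 at a P below 0.01, and 7 to 16 with a mouse left out, the 7 without BLM 2. With the mouse number as a replicate block, 3 members and 12 other genes were past the thresholds. Deviations of same-numbered mice correlated at -0.00797, -0.0660 and 0.161. The best-correlated BLM mouse was BLM 2 for BLM+HBO 1, BLM 1 for BLM+HBO 2 and BLM 3 for BLM+HBO 3. With so few mice these values cannot tell whether the numbers mark pairs.

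The ratio of Il13ra2 to Il13ra1 ran from -0.87 to 0.56 with a mouse left out, that of Il1rl1 to Il33 from -0.99 to -0.17, and that of Chil4 to Chil3 from -0.36 to 0.86, or -0.49 with 1 count added to each gene. The ratio of Arg1 to the C1q genes ran from -2.23 to -1.68, with exact permutation p from 0.0667 to 0.1, the smallest that fewer mice allow. Among log2 fold changes near 0, that of Il33 ran from -0.11 to 0.31, Areg from -0.29 to 0.24, Il4 from -0.25 to 0.0089 and Tslp from -0.0591 to 0.11 with a mouse left out. Areg stood at 0.0725 by limma and at 0.14 with the replicate block, and Il4 at 0.0051 with it. The cause of these changes was not tested. With 4 and 3 mice, differences near the spread of the mice were not resolved, and Chil4, Il13ra2 and Il13 were limited by depth.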
